A study of Mus musculus with 20 samples.

Results

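EGR1 was profiled by CUT&RUN in sorted neuronal nuclei of the adult mouse brain, and its peaks in 2 libraries labelled excitatory neuron were compared with those in 2 libraries labelled inhibitory neuron. These are 4 of the 20 libraries of the study, the other 16 being for histone modifications, and they hold 304703 of the 3414072 deposited peaks on chromosomes 1 to 19 and X. In CUT&RUN an antibody directs a nuclease to its target in intact nuclei, and the DNA that is released there is sequenced. All libraries came from nuclei of whole brain of 8-week-old mice, sorted by flow cytometry, and both neuron types share the genotype Sun1 f/f | Emx1Cre (+). Emx1 drives Cre in the lineage of the dorsal forebrain, which gives rise to cortical and hippocampal excitatory neurons and to some of the glia there. The sources used here do not say by which gate the nuclei were sorted, and a share of other nuclei in a sort cannot be told apart from weaker binding in every nucleus. The labels do not say that the 2 libraries of a type came from separate animals. Every p-value therefore measures only the spread between these libraries, except those of the count model of summits given below, which measure none.

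EGR1 (also called Zif268 or Krox-24) is a zinc-finger transcription factor of the immediate early class: synaptic activity induces it within minutes, without new protein synthesis. It binds a GC-rich element, and it acts at promoters and enhancers of genes for synaptic plasticity, while its own activity is held back by the NAB proteins that it helps to induce. In the adult forebrain it is known for its high basal level in cortical and hippocampal pyramidal neurons and is widely used as a marker of neuronal activity.

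Promoters are shown first, because the data separate those that all 4 libraries shared from those of lineage genes that peaks of 1 type covered. Each sequence is the RefSeq window of the GRCm38.p6 assembly from 250 bases before to 50 bases after the annotated start. Capitals mark the EGR consensus GCGTGGGCG, its relative GCGGGGGCG, or the GC box GGGCGG, on either strand and with overlapping matches joined. The first 3 were the strongest by the authors' mean fold enrichment among windows with the consensus, peaks in all 4 libraries and summits of both libraries of at least 1 type.
Dnajc17: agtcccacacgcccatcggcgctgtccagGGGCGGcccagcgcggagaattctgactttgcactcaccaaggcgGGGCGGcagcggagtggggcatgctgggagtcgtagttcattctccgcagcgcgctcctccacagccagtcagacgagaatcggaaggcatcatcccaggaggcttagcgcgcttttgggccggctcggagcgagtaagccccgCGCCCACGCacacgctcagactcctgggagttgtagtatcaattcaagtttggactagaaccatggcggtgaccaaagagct
Ino80: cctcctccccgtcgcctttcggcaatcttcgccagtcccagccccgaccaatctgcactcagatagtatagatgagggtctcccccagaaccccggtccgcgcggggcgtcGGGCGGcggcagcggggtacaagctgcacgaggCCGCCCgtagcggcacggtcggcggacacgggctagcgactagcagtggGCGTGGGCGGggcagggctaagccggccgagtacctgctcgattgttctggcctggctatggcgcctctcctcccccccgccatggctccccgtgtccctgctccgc
Nvl: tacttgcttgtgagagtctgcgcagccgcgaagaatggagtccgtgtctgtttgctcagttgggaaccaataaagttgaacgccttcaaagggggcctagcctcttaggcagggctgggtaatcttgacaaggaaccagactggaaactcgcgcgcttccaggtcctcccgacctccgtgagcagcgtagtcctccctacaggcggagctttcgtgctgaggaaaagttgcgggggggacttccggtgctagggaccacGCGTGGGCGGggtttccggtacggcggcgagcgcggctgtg
These lie at chr2:119208746-119209045, chr2:119477638-119477937 and chr1:181144155-181144454, all 3 on the minus strand. With the annotated start as position +1, the consensus began at position -32 in Dnajc17, at -57 in Ino80 and at +10 in Nvl.

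The following 4 windows belong to transcription factors: Neurod6, Emx1 and Tbr1 of the forebrain excitatory lineage, and Lhx2. Lhx2 was listed here among thalamic, hypothalamic and brainstem genes. All 4 windows were covered by peaks in both excitatory libraries and in neither inhibitory library. These and the 2 windows after them were chosen after their values were seen.
Neurod6: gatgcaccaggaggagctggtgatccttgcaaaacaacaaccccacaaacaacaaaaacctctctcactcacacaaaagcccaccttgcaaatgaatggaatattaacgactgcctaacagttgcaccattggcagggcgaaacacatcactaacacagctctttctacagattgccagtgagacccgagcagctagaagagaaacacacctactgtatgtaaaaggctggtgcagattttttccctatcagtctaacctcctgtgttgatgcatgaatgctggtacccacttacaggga
Emx1: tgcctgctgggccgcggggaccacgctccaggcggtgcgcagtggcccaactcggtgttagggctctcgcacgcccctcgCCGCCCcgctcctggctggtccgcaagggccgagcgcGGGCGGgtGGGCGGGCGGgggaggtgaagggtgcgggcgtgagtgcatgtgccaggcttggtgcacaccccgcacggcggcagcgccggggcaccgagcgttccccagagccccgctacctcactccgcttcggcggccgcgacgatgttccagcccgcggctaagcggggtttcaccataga
Tbr1: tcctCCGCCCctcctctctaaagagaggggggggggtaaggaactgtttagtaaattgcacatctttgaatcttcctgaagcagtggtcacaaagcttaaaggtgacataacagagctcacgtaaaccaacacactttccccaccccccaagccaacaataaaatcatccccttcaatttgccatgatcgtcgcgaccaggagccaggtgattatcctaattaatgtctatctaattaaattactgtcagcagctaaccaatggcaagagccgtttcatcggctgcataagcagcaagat
Lhx2: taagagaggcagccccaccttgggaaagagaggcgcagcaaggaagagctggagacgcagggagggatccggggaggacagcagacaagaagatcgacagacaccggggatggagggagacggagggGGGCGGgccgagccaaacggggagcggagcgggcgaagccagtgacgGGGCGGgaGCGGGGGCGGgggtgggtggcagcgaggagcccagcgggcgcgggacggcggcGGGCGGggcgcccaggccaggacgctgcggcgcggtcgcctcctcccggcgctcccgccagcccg
The windows are chr6:55681214-55681513 on the minus strand for Neurod6, and on the plus strand chr6:85187681-85187980 for Emx1, chr2:61804203-61804502 for Tbr1 and chr2:38339031-38339330 for Lhx2. A second Lhx2 window, not shown, was covered in both excitatory libraries and also in inhibitory 2, with a fold of 5.15. None of the 4 windows shown holds the consensus. Lhx2 holds GCGGGGGCG from position -68, Emx1 holds 4 GC boxes and Tbr1 holds 1, and the Neurod6 window holds none of the 3 elements.

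The reverse pattern, peaks in both inhibitory libraries and in neither excitatory library, was found at the windows of the vesicular GABA transporter gene Slc32a1 and of Zic1, a zinc-finger factor of the cerebellum and dorsal neural tube.
Slc32a1: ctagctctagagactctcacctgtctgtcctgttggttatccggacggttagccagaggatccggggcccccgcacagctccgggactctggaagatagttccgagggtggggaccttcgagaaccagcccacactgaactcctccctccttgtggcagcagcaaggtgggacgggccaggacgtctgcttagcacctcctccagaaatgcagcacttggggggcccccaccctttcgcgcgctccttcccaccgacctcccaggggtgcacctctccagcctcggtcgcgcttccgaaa
Zic1: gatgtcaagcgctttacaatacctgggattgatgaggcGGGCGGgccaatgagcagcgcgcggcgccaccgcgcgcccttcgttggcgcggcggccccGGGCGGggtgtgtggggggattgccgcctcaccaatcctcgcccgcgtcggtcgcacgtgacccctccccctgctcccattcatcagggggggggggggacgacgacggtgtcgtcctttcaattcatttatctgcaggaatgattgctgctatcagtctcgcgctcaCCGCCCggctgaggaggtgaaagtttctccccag
Slc32a1 lies at chr2:158610508-158610807 on the plus strand and Zic1 at chr9:91365719-91366018 on the minus strand. The Slc32a1 window holds none of the 3 elements, and the Zic1 window holds 3 GC boxes. Such windows were a minority of their lists. Of 37 windows of inhibitory neuron genes 1 was inhibitory-only, 1 was covered in all 4 libraries and 35 had another pattern or no peak. Of 50 windows of forebrain excitatory genes 7 were excitatory-only and 11 were covered in all 4. Lhx2 and Zic1 belong to other lists. Of 33 windows of thalamic, hypothalamic and brainstem genes 1 was excitatory-only. Of 20 windows of cerebellar granule genes 1 was inhibitory-only and 1 excitatory-only.

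Over all 21020 promoter windows, which cover 17251 of the 21631 protein-coding genes, 9567 had peaks in all 4 libraries, 322 in both excitatory libraries only, 115 in both inhibitory libraries only, and 8681 had none. The consensus GCGTGGGCG was present in 0.837% of all windows, in 1.33% of those covered in all 4 libraries and in 0.323% of those without a peak. It was present in 3 of the 322 excitatory-only windows (0.932%) and in 0 of the 115 inhibitory-only windows. The relative GCGGGGGCG was held by 5.47%, 5.59% and 5.22% of the shared, excitatory-only and inhibitory-only windows, against 1.21% of windows without a peak. Mean GC content was 62.2%, 57.3% and 62.5% in the shared, excitatory-only and inhibitory-only windows and 48.7% in windows without a peak, and its part in these shares was not tested. TGAGTCA, the element of AP-1 (the FOS and JUN dimer), went another way: it was held by 9.32% of the excitatory-only windows, 1.74% of the inhibitory-only windows, 2.68% of the shared windows and 6.81% of windows without a peak. The cyclic AMP response element TGACGTCA was held by 3.77% of shared windows and by 2.48% and 1.74% of the excitatory-only and inhibitory-only ones, against 2.26% of all windows and 0.680% of those without a peak. In windows with the EGR consensus, summits lay at a median of 79 to 98 bases from it, depending on the library. Of these summits 15.3% to 20% lay within 50 bases of the consensus. The window itself bounds these distances, so they do not show that summits gather at the consensus. These matches describe letters and not binding sites.

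Genome-wide, the excitatory libraries had more EGR1 peaks, and the surplus lay away from promoters. The lists held 93858 and 98534 peaks in excitatory and 49899 and 62412 in inhibitory libraries. Summits within 1 kb of an annotated start numbered 11310 and 11273 in excitatory and 10504 and 10941 in inhibitory libraries, a ratio of mean numbers of 1.05. Summits over 10 kb from any gene end numbered 61362 and 65457 against 28122 and 37821, a ratio of 1.92. These ratios depend on which peaks are kept: with equally many of the strongest peaks per list, distal summits numbered 30007 and 29998 against 28122 and 28715 (ratio 1.06), and start-proximal ones 8992 and 9025 against 10504 and 10323, which turns their order round. With peaks whose -log10 q was 5 or more, the distal ratio was 4.23 and the proximal one 1.25. As deposited, the groups did not overlap in either count, but only the second difference is large beside the spread between libraries of a type, as the bars of peak numbers show. The share of summits within 1 kb of a start was accordingly lower in excitatory libraries, at 12.2% ± 0.445 (SD, n = 2) against 19.99% ± 2.57 (SD, n = 2). The smallest p that an exact permutation of 2 and 2 libraries allows is 0.333 (two-sided), and each of these differences gave it.

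**Figure D1:**
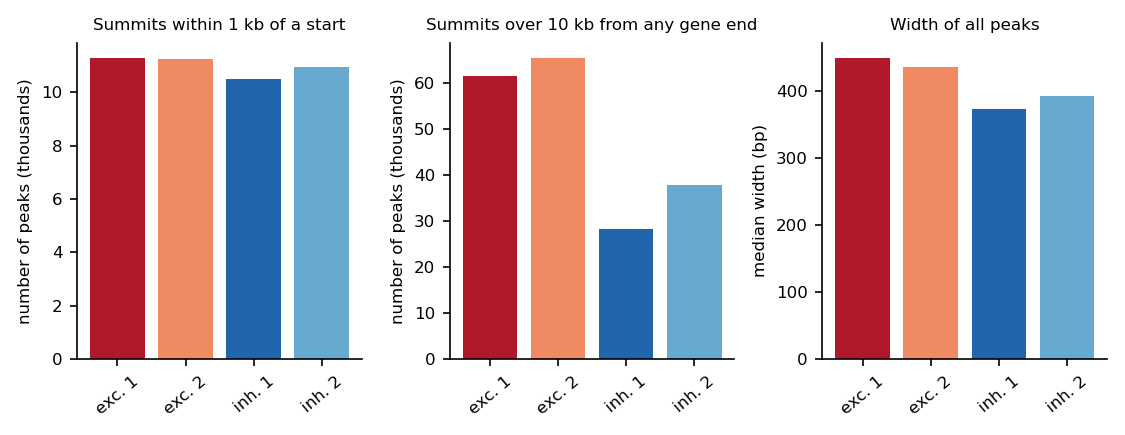
Bars give, for each of the 4 EGR1 libraries, the number of peaks with a summit within 1 kb of an annotated start, the number with a summit over 10 kb from any gene end, and the median width of all peaks in bp. Start-proximal numbers lie between 10504 and 11310 in every library, while distal numbers are 28122 and 37821 in the inhibitory and 61362 and 65457 in the excitatory libraries.

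Around starts the summits of both types took the same position. The fullest 200 bp bin was the one from 0 to 200 bp downstream of the start in all 4 libraries, with 4.23% and 3.87% of the excitatory and 7.17% and 6.38% of the inhibitory summits. Of summits within 1 kb, 42.3%, 43.4%, 43.9% and 42.5% lay upstream in excitatory 1, excitatory 2, inhibitory 1 and inhibitory 2. The types thus differed in the height of this profile and hardly in its place, as the curves around starts show. Further out, 17.0% and 17.9% of excitatory and 12.7% and 14.1% of inhibitory summits lay over 50 kb from any gene, and 59.0% and 58.1% against 62.4% and 62.4% lay inside gene bodies. On chromosome X were 1.47% and 1.42% of the excitatory and 1.53% and 1.62% of the inhibitory peaks.

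**Figure D2:**
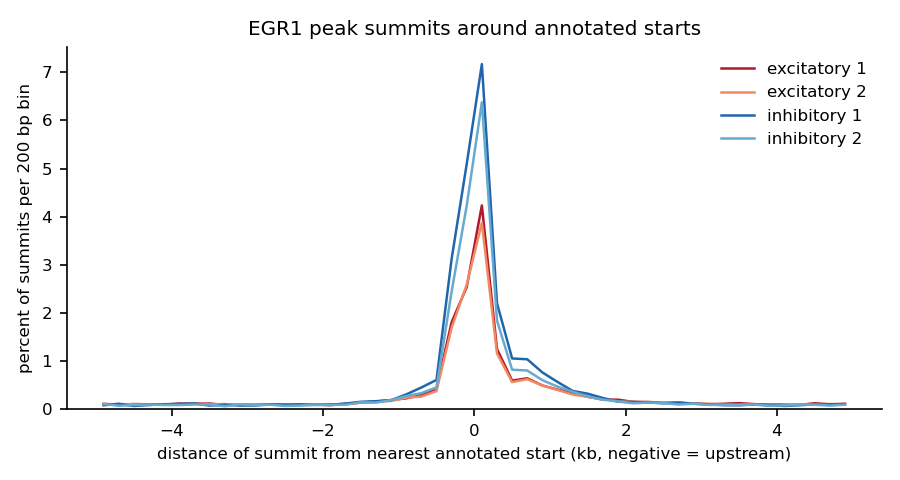
Each curve gives the percent of a library's summits per 200 bp bin by signed distance (kb, negative upstream) from the nearest annotated start. All 4 curves peak in the bin just downstream of the start, at 3.87% and 4.23% in excitatory and at 6.38% and 7.17% in inhibitory libraries.

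Excitatory peaks were wider, while the median of the authors' fold enrichment over all peaks overlapped between the types. Median widths were 450 and 436 bp in excitatory and 373 and 392 bp in inhibitory libraries. Near starts the medians were 767 and 781 bp against 630 and 729 bp, and over 10 kb from gene ends 422 and 409 bp against 323 and 341 bp, so the groups did not overlap in either place. The median fold was 4.40 and 4.02 in excitatory and 4.10 and 4.24 in inhibitory lists, which overlap. In every library peaks near starts were stronger than distal ones, with medians of 5.55, 5.28, 5.20 and 5.77 near starts and 4.32, 4.02, 3.93 and 3.99 far from genes, in the order given above. Between the types the medians near starts overlapped, while the distal ones were higher in both excitatory libraries. When only peaks whose -log10 q was 5 or more were kept, the width difference turned round, from 60.5 bp wider to 28.0 bp narrower in the excitatory libraries.

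When overlapping peaks of the 4 libraries were merged into 144718 regions, 30308 (20.9%) had peaks in both excitatory libraries and in neither inhibitory one, 3479 (2.40%) had the reverse pattern, and 26345 (18.2%) had peaks in all 4. When equally many of the strongest peaks were taken from every list, the counts were 12053, 6434 and 19773. Regions of 1 type were mostly distal: 77.4% of the excitatory-only and 76.1% of the inhibitory-only regions had their summit over 10 kb from any gene end, against 44.7% of the shared regions and 69.5% of all merged regions. Conversely, 34.2% of the shared regions lay within 1 kb of a start, against 1.63% and 3.63% of the excitatory-only and inhibitory-only regions and 8.69% of all. The median width was 542 bp in excitatory-only, 464 bp in inhibitory-only and 900 bp in shared regions. These are counts over regions and have no replicate of their own.

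The genes nearest to most excitatory-only regions were long ones. Rbfox1, which encodes a neuronal splicing regulator, was nearest to 39 excitatory-only and 10 inhibitory-only regions, and the gene spans 1528 kb. Dab1, the adaptor of Reelin signalling, had 37 and 3, and Tenm4, a teneurin adhesion protein, 37 and 5. Dlg2, which encodes the postsynaptic scaffold PSD-93, had 36 and 3, besides 33 shared regions. Foxp1, a forkhead transcription factor of cortical and striatal projection neurons, had 31 and 1. Kcnma1, the BK calcium-activated potassium channel, had 31 and 0. On the inhibitory side Ntm, a GPI-anchored adhesion protein, led with 11 inhibitory-only regions against 25 excitatory-only ones, followed by Rbfox1 with 10 and Anks1b, a postsynaptic scaffold gene, with 8. Kif26b, an atypical kinesin, had 6 inhibitory-only and 2 excitatory-only regions and was one of the few genes among these where the inhibitory-only class was the larger. The background ratio of the 2 classes is the ratio of 30308 to 3479 regions, and longer genes hold more regions of both.

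The strongest excitatory-only region had an authors' fold enrichment of 15.6 and 15.1. It lay at chr11:4027723-4028394, 3408 bp from Sec14l4. Others were near Hs3st2, a heparan sulfate sulfotransferase gene (14.3 and 13.4, at chr7:121296093-121296760, 95128 bp away), and Ctnna2, which encodes neuronal alpha-catenin (13.0 and 12.8, 184090 bp away). Of the inhibitory-only regions, that in the gene of protein kinase C epsilon, Prkce, had 9.57 and 7.76, and that in Cacna1a, the P/Q-type calcium channel gene, 7.38 and 7.96 at chr8:84485764-84486390. An inhibitory-only region 127902 bp from Bdnf, the gene of brain-derived neurotrophic factor, had 6.38 and 8.26. Such folds rank peaks within a list only.

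The type-only regions were then set against the histone peaks of the same study. At some lineage genes, among them Slc32a1, Gad1 and Gabra6, the histone lists go against their labels: the H3K27ac lists labelled excitatory covered 10.4% and 7.64% of the Slc32a1 gene body with 5 kb on each side, and those labelled inhibitory 0% and 0%. H3K4me1 covered 21.2% and 25.4% of Gad1 in the lists labelled excitatory and 4.42% and 7.40% in those labelled inhibitory. At Gabra6, a GABA-A receptor gene of cerebellar granule neurons, H3K4me1 covered 5.26% and 7.798% against 24.2% and 23.8%. Excitatory markers were mixed. H3K4me1 covered 22.3% and 25.9% of Neurod6 in the lists labelled excitatory and 16.5% and 14.8% in those labelled inhibitory. For Emx1 its values were 29.1% and 27.5% against 26.7% and 22.6%. H3K4me1 at the glutamate transporter gene Slc17a7 and H3K4me3 at Emx1 had the same order. Against the labels, H3K27ac covered 7.89% and 7.26% against 13.95% and 14.4% of Slc17a7. H3K4me3 covered 1.37% and 8.16% against 19.6% and 20.2% of Tbr1. H3K27ac overlapped between the labels at Neurod6 and Emx1. EGR1 coverage of Slc32a1 had the order opposite to that of H3K27ac, with 0% and 0% in excitatory and 6.12% and 7.63% in inhibitory lists, while at Gabra6 EGR1 and H3K4me1 were both higher in the lists labelled inhibitory. Each histone library is therefore named by its label only.

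Of the excitatory-only EGR1 summits, 61.6% and 77.2% lay in H3K4me1 peaks of the libraries labelled excitatory and 27.9% and 26.1% in those labelled inhibitory. H3K4me1 marks enhancers and active gene bodies. For the inhibitory-only summits the values were 48.7% and 65.0%, and 58.5% and 58.6%. H3K27ac, a mark of active promoters and enhancers, was found at 9.71% and 11.1% of excitatory-only and at 40.8% and 43.6% of inhibitory-only summits in the libraries labelled inhibitory, a ratio of the shares of 4.20 and 3.94. In the H3K27ac libraries labelled excitatory the order was the other way, with 21.0% and 34.0% against 18.5% and 29.7%. H3K4me3, a promoter mark, covered 60.3% to 75.4% of the shared summits. H3K27me3, the Polycomb mark, covered 9.53% to 23.7% of summits over all 3 classes and 4 libraries, and in the libraries labelled inhibitory it covered 23.7% and 22.7% of excitatory-only and 22.8% and 20.5% of inhibitory-only summits. In those labelled excitatory it covered 9.91% and 13.3% of excitatory-only and 18.6% and 19.6% of inhibitory-only summits.

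**Figure D3:**
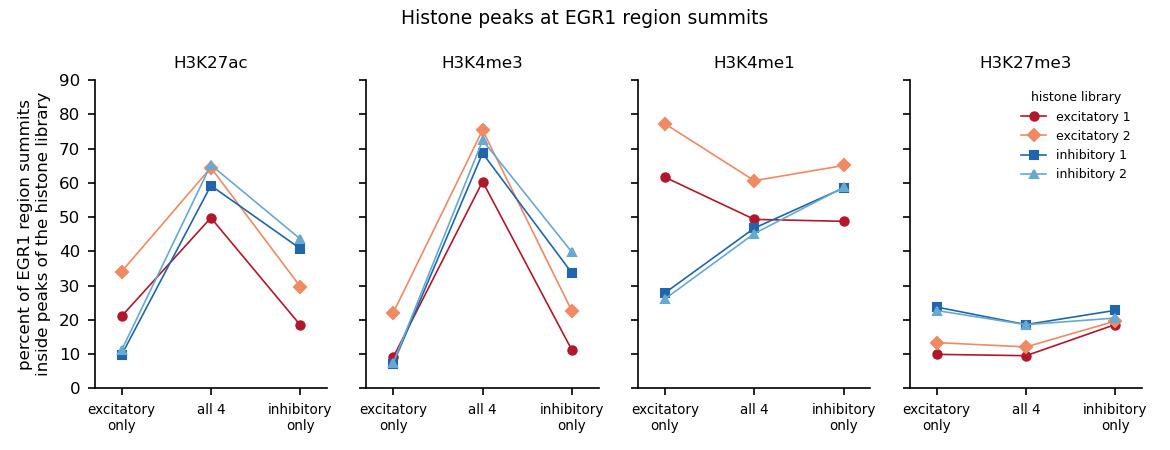
For each of 4 histone marks, lines give the percent of EGR1 region summits that lie inside peaks of each histone library, for excitatory-only, shared (all 4) and inhibitory-only EGR1 regions. In the H3K27ac libraries labelled inhibitory 40.8% and 43.6% of inhibitory-only summits are covered and 9.71% and 11.1% of excitatory-only ones.

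Within the 26345 shared regions, the relative strength of peaks was compared between the types. Each library's strongest fold in a region was turned into its percentile over these same regions. Both excitatory libraries ranked above both inhibitory ones in 5905 regions (22.4%) and the reverse held in 7219 (27.4%). Variation between libraries alone also gives such regions, and the share it gives was not estimated. Near starts (8710 regions) the shares were 12.0% and 35.3%, and over 10 kb from gene ends (11764 regions) 30.7% and 21.5%. Promoter regions thus ranked relatively higher in inhibitory lists and distal regions in the excitatory ones. Percentiles of a library run over the same regions, so a higher rank in one place lowers it elsewhere. The promoter and distal contrasts are therefore not separate results. Across regions the rank correlation was 0.810 within the excitatory and 0.676 within the inhibitory pair, and 0.548 to 0.573 between types, as a description over regions that are not independent.

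The largest gap in favour of excitatory libraries was at chr10:89243722-89244603 inside Ano4, a gene of the TMEM16 family, at percentiles of 98.3 and 98.0 against 8.97 and 3.397. A region 13951 bp from Disc1, a neurodevelopmental scaffold gene, stood at percentiles of 92.4 and 90.2 against 2.70 and 1.75. In Opcml, an adhesion gene, a region stood at 87.5 and 89.2 against 0.112 and 2.11, and regions of Tnfaip3 and Pax7 followed. In the other direction the largest gap was at chr2:128245571-128246015, whose nearest gene was Bcl2l11, the BH3-only apoptosis gene, 83234 bp away, at percentiles of 8.37 and 5.89 in excitatory and 96.4 and 96.5 in inhibitory libraries. A region in Lrrc8a, which encodes a subunit of the volume-regulated anion channel, stood at 6.09 and 5.16 against 87.5 and 95.5. Regions of Unc13d, Plppr1 and Olfm1, the last encoding a secreted neuronal glycoprotein, came next.

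Where all 4 libraries had exactly 1 peak in a region (22040 regions), summits were close together in both types. The median distance between summits was 58 bp within the excitatory pair and 76 bp within the inhibitory pair, and 71 to 76 bp for the 4 pairs of different type. Summit distances between types were therefore no larger than those within the inhibitory pair. Median widths in these same regions were 678 and 679 bp in excitatory and 511 and 581 bp in inhibitory libraries, so the difference in width was also present at shared sites. Median folds there were 5.75 and 5.48 in excitatory and 4.87 and 5.41 in inhibitory libraries, without overlap.

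The genes themselves were compared by the percent of each gene body, with 5 kb on either side, that lay under EGR1 peaks. Several genes of the excitatory lineage, such as Neurod6 and Emx1, had more EGR1 coverage in excitatory nuclei, and several of the GABAergic lineage, such as Slc32a1 and Dlx2, more in inhibitory nuclei. After quantile normalisation, which removes differences in total coverage, limma called 432 of 16408 genes tested (2.63%) at an adjusted p under 0.05, 344 higher in excitatory (2.10%) and 88 higher in inhibitory libraries (0.536%). Before normalisation both excitatory libraries lay above both inhibitory ones at 63.3% of these genes and the reverse held at 3.71%. Without normalisation the fit called 2951 genes higher in excitatory and 76 higher in inhibitory libraries, with a median difference over all genes of 1.32 percentage points instead of -0.21. With equally many peaks per list the split was 206 and 145. The calls need all 4 libraries: leaving out any 1 of them, which leaves a lone library that is assumed to vary like the other type, gave 0 calls by limma, with 1794 to 4124 genes at an unadjusted p under 0.05.

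Neurod6, a basic helix-loop-helix factor of pyramidal neurons, was covered over 9.71% and 10.4% in excitatory and 0% and 1.78% in inhibitory libraries. The normalised difference was 7.56 points with a standard error of 0.87 (adjusted p = 0.0268). Its excitatory-only region had its summit at -94 bp from the start in excitatory 2, inside the promoter shown above. Emx1, the homeobox gene whose promoter drives Cre in these mice, was covered over 5.97% and 7.57% against 0% and 0% (difference 5.40, SE 0.64, adjusted p = 0.0268). Emx1 thus had no inhibitory EGR1 peak within 5 kb, and 1 of its 2 excitatory-only regions spanned the start. Tbr1, a T-box factor of deep-layer cortical neurons, had 6.38% and 5.68% against 1.09% and 1.21% (difference 3.36, SE 0.54, adjusted p = 0.0441). In Tbr1 the 2 regions split: that with its summit at -103 bp from the start was excitatory-only, while that at -1321 bp was in all 4 libraries, with folds of 3.47 and 3.81 in excitatory and 3.93 and 3.59 in inhibitory lists.

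Slc17a7, which encodes the vesicular glutamate transporter VGLUT1, was covered over 9.16% and 10.0005% in excitatory libraries and over 2.43% and 2.92% in inhibitory ones. The difference was 4.92 points (SE 0.78, adjusted p = 0.0422). A Slc17a7 region with its summit at -1695 bp from the start was present in all 4 libraries. Its folds were 3.82 and 2.93 in excitatory and 6.93 and 7.62 in inhibitory lists. The excitatory-only region of Slc17a7 had folds of 2.78 and 2.82. These lie below the 10th percentiles of all peaks in the excitatory lists, 3.09 and 2.86. With only peaks of a -log10 q of at least 5 the sign of the Slc17a7 difference turned to -1.69 points, and with equally many peaks the difference of 5.08 points missed the threshold.

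On the inhibitory side, Slc32a1, the vesicular GABA transporter, was covered over 6.12% and 7.63% in the inhibitory and 0% and 0% in the excitatory libraries. Its difference of -8.02 points (SE 0.57, adjusted p = 0.0266) also passed without quantile normalisation and with equally many peaks, and missed the threshold with peaks of a -log10 q of 5 or more, at -3.59 points. All 3 of the Slc32a1 regions found in both libraries of a type were inhibitory-only, with summits at -683, 54 and 5894 bp from the start. Dlx2 and Dlx5 are homeobox genes of the ventral forebrain that specify GABAergic neurons. Dlx2 had 0% and 0% against 3.48% and 2.94% (difference -4.11, limma adjusted p = 0.0315). Dlx5 had 4.81% and 5.94% against 10.9% and 10.2% (difference -7.52, limma adjusted p = 0.0477). The inhibitory-only region of Dlx2 had folds of 3.88 and 3.09, the second below the 10th percentile of inhibitory 2. Around Dlx5, 1 region was in all 4 libraries and 1 was excitatory-only, with folds of 3.53 and 6.52. The inhibitory-only region of Dlx5 had folds of 2.87 and 2.88, below the 10th percentiles of both inhibitory lists. Gad1, which encodes the GABA-synthesising enzyme GAD67, had 1.05% and 0% against 1.87% and 2.09% (difference -2.37, adjusted p = 0.0386). However, none of the 6 Gad1 regions had a peak in both inhibitory libraries, whose folds there were 2.55 to 3.83. The similar coverage thus came from peaks at different places. The Gad1 call was lost without normalisation (-1.45 points) and with equally many peaks (-1.60 points), where that of Dlx5 was lost too (-4.73 points). Gad2, the gene of GAD65, missed the threshold with 0.270% and 0% against 2.52% and 1.74% (difference -2.79, adjusted p = 0.0652), although its libraries did not overlap. Tac1, the precursor of substance P, had 0% and 0% against 3.75% and 2.98% (difference -4.30, adjusted p = 0.0359). Prox1, a homeobox gene of dentate granule cells and of caudal interneurons, was in both neuron lists and was higher in inhibitory libraries, with 1.48% and 1.11% against 3.196% and 4.12% (difference -3.74, adjusted p = 0.0268).

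**Figure D4:**
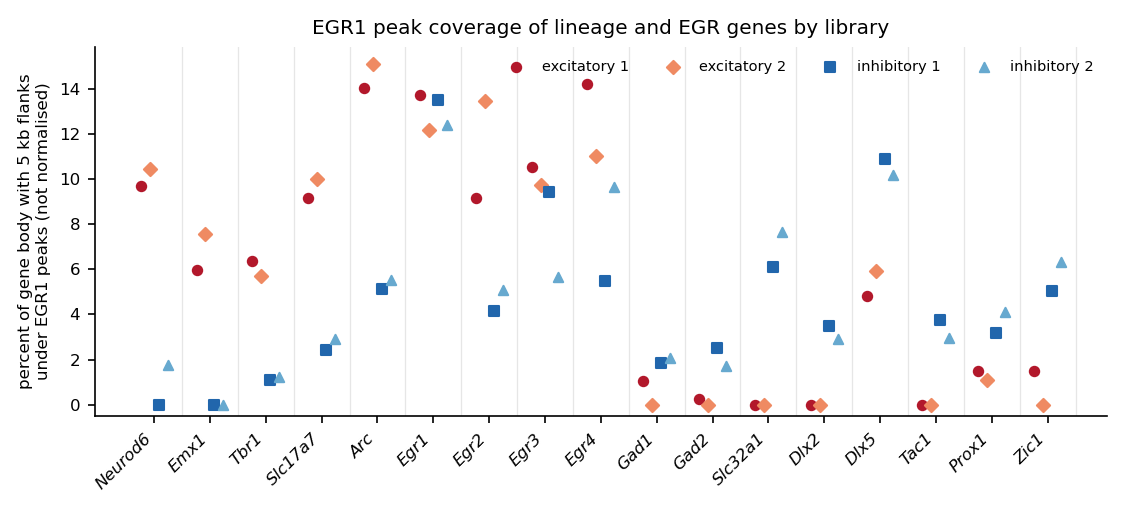
Points give the percent of each gene body with 5 kb flanks under EGR1 peaks in each of the 4 libraries, before normalisation, for lineage genes, Arc and the EGR family. Slc32a1, Dlx2 and Tac1 are at 0% in both excitatory libraries, Emx1 is at 0% in both inhibitory ones, and Egr1 lies between 12.2% and 13.7% in all 4.

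In both neuron lists the called genes followed the labels, except Prox1, and each call rests on all 4 libraries. Over all genes tested, 2.10% were called higher in excitatory and 0.536% higher in inhibitory libraries. Of the 35 forebrain excitatory genes, all tested, 6 were called higher in excitatory libraries (among them Tbr1, Neurod6, Emx1, Slc17a7 and Rgs14, a signalling gene of hippocampal area CA2) and Prox1 was called lower. Their median difference was 0.99 points, with 74.3% of members above 0, against -0.21 points and 43.8% over all genes tested. Of 28 inhibitory neuron genes tested out of 33, 6 were called higher in inhibitory libraries (Slc32a1, Dlx5, Tac1, Dlx2, Prox1 and Gad1) and 0 higher in excitatory ones, with a median of -1.30 points. The interneuron subtype genes Pvalb (parvalbumin) and Sst were not among them: for Pvalb the difference was -0.21 (adjusted p = 0.91) and for Sst 0.34 (adjusted p = 0.93). Somatostatin, encoded by Sst, had 4.50% and 4.91% in excitatory and 5.17% and 0% in inhibitory libraries, which overlap.

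Some genes of other cell types were called too, where 2.10% of all genes tested were called higher in excitatory and 0.536% higher in inhibitory libraries. Of 18 cerebellar granule genes tested out of 20, Zic1 and Zic4 were called higher in inhibitory libraries and Slc17a7, which granule neurons also use, higher in excitatory ones, with a list median of -1.59 points. Zic1 had 1.51% and 0% against 5.05% and 6.31% (difference -6.22, SE 0.62, adjusted p = 0.0266). The summed coverage of this list was 84.6 and 84.8 in excitatory and 67.6 and 107 in inhibitory libraries, in percent added over the 20 genes, with 4, 4, 4 and 1 genes at 0. Gabra6, the marker that defines granule neurons, had 0% and 0.913% against 1.201% and 5.89%, with inhibitory 2 standing apart (difference -4.004, adjusted p = 0.16). For oligodendrocyte lineage genes, 3 of 13 tested out of 16 were called higher in excitatory libraries: Cspg4, the NG2 proteoglycan of oligodendrocyte precursors, and Mobp and Mog, genes of the myelin sheath. Cspg4 had 9.02% and 9.39% against 1.64% and 2.50% (difference 5.31, adjusted p = 0.0333). The summed coverage of that list was 57.4 and 47.7 against 22.2 and 37.9, while its median difference was -0.66 points, with 4 of 13 members above 0. Of 18 thalamic, hypothalamic and brainstem genes tested out of 31, Prox1 was called higher in inhibitory libraries, and Oxt and Avp higher in excitatory libraries. Oxt and Avp are hypothalamic neuropeptide genes that neighbour each other. Their windows with 5 kb flanks overlap, so their calls are not independent. Avp had 9.11% and 9.35% against 0% and 0% (difference 7.73, adjusted p = 0.0266) and was nearest to 1 summit in each excitatory library. With equally many peaks the calls higher in excitatory and in inhibitory libraries numbered 0 and 5 for granule genes, 1 and 1 for oligodendrocyte lineage genes, where Cspg4 missed the threshold at 2.59 points, 3 and 1 for forebrain excitatory genes, and 0 and 4 for inhibitory neuron genes. Over all 15497 genes tested in that setting the calls numbered 206 and 145. The part of admixed nuclei in the list differences was not tested.

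**Figure D5:**
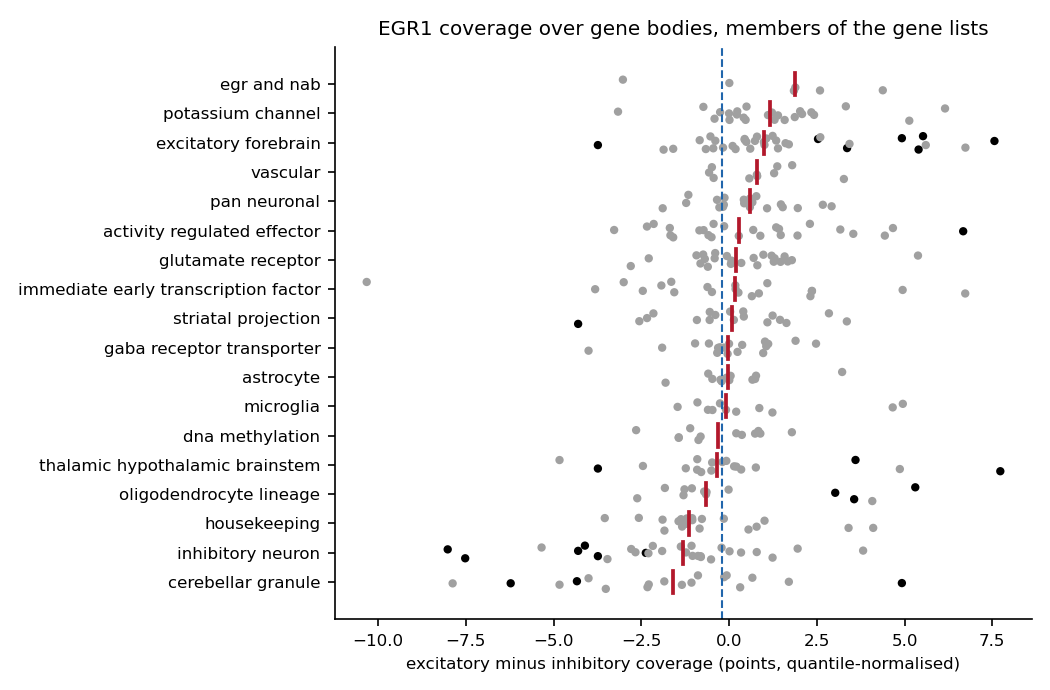
Each point is a gene of one of the 18 lists, placed by its difference in EGR1 coverage between excitatory and inhibitory libraries (percentage points after quantile normalisation). Black points passed an adjusted p of 0.05, red bars are list medians and the dashed line is the median over all genes tested, -0.21. The forebrain excitatory list has 6 called points to the right and Prox1 to the left, and the inhibitory neuron list has 6 called points to the left.

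Each EGR gene had at least 1 EGR1 region shared by all 4 libraries, and none had a region found in both libraries of 1 type only. Egr1 was covered over 13.7% and 12.2% in excitatory and 13.5% and 12.4% in inhibitory libraries. Its normalised difference was -3.03 points (SE 1.62, adjusted p = 0.29). Both Egr1 regions were present in all 4. Folds were 4.79 and 3.73 in excitatory against 5.83 and 5.07 in inhibitory lists at 1 region, and 3.58 and 2.78 against 4.41 and 4.01 at the other. Egr2, which encodes the related factor Krox-20, had 9.15% and 13.4% against 4.15% and 5.08% (difference 4.38, SE 1.51, adjusted p = 0.16), without overlap. Its region over the start was in all 4 libraries, with folds of 5.89, 5.13, 5.26 and 5.49. Egr3 had 10.5% and 9.73% against 9.40% and 5.64%, and Egr4 14.2% and 11.0% against 5.46% and 9.65%. The differences at Egr3 and Egr4, 0.01 and 2.59 points, had standard errors of 1.90 and 1.69. Nab1 and Nab2, the corepressors of EGR proteins, had differences of 1.85 and 1.89 points with standard errors of 1.01 and 2.35, and with equally many peaks that of Nab2 turned to -2.97. Limma called 0 of these 6 genes, and 1 of them, Egr2, had an unadjusted p under 0.05.

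Among 20 other immediate early transcription factor genes limma called 0, with 6 (30%) at an unadjusted p under 0.05, against 4150 (25.3%) of all 16408 genes tested. The list median was 0.18 points, and -0.55 points with equally many peaks. Btg2, an antiproliferative early gene, had 12.8% and 15.5% against 5.50% and 4.35% (difference 6.73, adjusted p = 0.0775), and Ier5 the reverse, with 5.98% and 10.5% against 11.1% and 19.1% (difference -10.33, adjusted p = 0.12). Of all genes tested 2.10% were called higher in excitatory libraries. Of 25 activity-regulated effector genes tested out of 26, 1 was called: Arc, whose protein traffics AMPA receptors at activated synapses. It had 14.0% and 15.1% in excitatory and 5.11% and 5.54% in inhibitory libraries (difference 6.67, SE 1.11, adjusted p = 0.0470). With equally many peaks Arc missed the threshold, at 4.35 points, and the list had 0 calls. Around Arc 3 regions were excitatory-only and 1, at chr15:74672178-74672924, was inhibitory-only, with folds of 2.85 and 4.82. Folds of the excitatory-only regions were 2.60, 2.57 and 2.95 in excitatory 1 and 3.17, 2.54 and 2.39 in excitatory 2. The 10th percentiles of all peaks there were 3.09 and 2.86. With peaks of a -log10 q of at least 5 the Arc difference was 0.19 points. Peaks so near the floor of the lists cannot show whether the types differed in place at Arc. Bdnf had 2 regions in all 4 libraries and 2 that were excitatory-only.

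In the remaining lists 1 gene passed, Tac1 among 18 striatal projection genes, where 0.536% of all genes tested were called higher in inhibitory libraries. The 24 potassium channel genes had a median of 1.17 points and 79.2% of members above 0, with 0 called by limma and 6 (25%) at an unadjusted p under 0.05, against 25.3% of all genes tested. Kcnv1, a modulatory channel subunit, came nearest (10.2% and 8.31% against 1.81% and 2.71%, adjusted p = 0.0522). The 24 glutamate receptor genes, 18 GABA receptor and transporter genes and 12 DNA methylation genes had medians of 0.21, -0.02 and -0.30 points and 0 called by limma, with 11, 5 and 2 at an unadjusted p under 0.05 (25.3% of all genes tested). Pan-neuronal genes, with 0 of 21 called and 3 at an unadjusted p under 0.05, had a median of 0.59 points, but -0.66 points with equally many peaks. Astrocyte, microglia and vascular genes had medians of -0.03, -0.09 and 0.80 points and 0 called by limma, of 12, 11 and 10 tested, with 1, 3 and 4 at an unadjusted p under 0.05. With equally many peaks the first 2 medians turned to 0.47 and 0.54 points. Summed coverage of the vascular list was 48.1 and 51.0 against 23.5 and 24.5. The 20 housekeeping genes had a median of -1.13 points and 0 called, with 6 at an unadjusted p under 0.05. Without normalisation all list medians but that of inhibitory neuron genes (-0.30 points) were above 0, that of granule genes by 0.0028 points.

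Outside the lists, the largest called differences toward excitatory libraries were in short genes. Il1b, which encodes the cytokine interleukin-1 beta, had 11.9% and 16.3% against 1.64% and 0% (difference 11.21, SE 1.62, adjusted p = 0.0370). S100a10, the annexin A2 partner p11, had 16.5% and 18.5% against 4.88% and 4.04% (difference 10.19, SE 1.34, adjusted p = 0.0315). Rprml, Fxyd3 (a regulator of the sodium pump), Igfbp6 (a binding protein of insulin-like growth factors), B4galt7, Rnf166 and Ccdc121 followed, with differences of 8.37 to 9.47 points. Tppp2 and Uchl4 also belong here, with 9.18 and 8.85 points, but no summit had either as its nearest gene, so their coverage comes from peaks nearest to neighbouring genes. Toward inhibitory libraries the largest called difference was at Camk2n2, an inhibitor of CaMKII. It had 10.5% and 11.4% in excitatory and 15.3% and 17.5% in inhibitory libraries (difference -8.90, SE 1.23, limma adjusted p = 0.0348). Camk2n2 was nearest to 0 and 0 summits in excitatory and to 1 and 1 in inhibitory libraries. Its excitatory coverage therefore comes from peaks nearest to neighbouring genes. Sox2, a transcription factor of neural progenitors and glia, had 0% and 1.96% against 5.18% and 6.71% (difference -6.33, SE 0.70, adjusted p = 0.0266), with an inhibitory-only region whose summit lay 199 bp upstream of the start. Tmem52, Olfr95, Insm2, Pnp2 and the homeobox gene Uncx completed this group, with -6.59 to -4.90 points. With equally many peaks Il1b, S100a10 and Camk2n2 missed the threshold, at 8.44, 5.12 and -7.92 points.

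At gene ends, taken as 2 kb on each side of both ends, limma called 0 of 14310 genes tested (0%), with 2105 at an unadjusted p under 0.05, of which 1249 were higher in excitatory libraries. Both excitatory libraries lay above both inhibitory ones before normalisation at 47.4% of these genes and the reverse held at 6.04%. In the order of p, the leading genes toward excitatory libraries were Cpxm2, Snai3, Il17ra, Hr and Htr5b, and toward inhibitory ones Rhbdl3, Erbb4, Septin3, Wsb2 and Ebf1. Erbb4, the neuregulin receptor of interneurons, had 0% and 0% in excitatory and 9.90% and 12.6% in inhibitory libraries (difference -12.56, adjusted p = 0.11). Htr5b, a serotonin receptor gene, had 26.9% and 25.4% against 4.78% and 4.85% (difference 17.79, adjusted p = 0.11). Neither passed the threshold, although the libraries of the types did not overlap at either gene.

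Summits per gene were counted from equally many of the strongest peaks of each list. Limma on log2(number + 1) called 1613 of 14930 genes (10.8%), 828 higher in excitatory (5.55%) and 785 higher in inhibitory libraries (5.26%), while the types did not overlap at 14.9% and 14.7% of genes. However, in 1527 of the called genes both types had identical replicate numbers, which leaves no spread to test against. A count model with a common dispersion was chosen after this was seen. Its fitted dispersion was 1, the lowest value allowed. Its p-values thus treat summits as independent counts and measure no spread between libraries. It called 4 genes (0.0268%), with 758 at an unadjusted p under 0.05. The clearest was Unc13c, which encodes the vesicle-priming protein Munc13-3 best known from the cerebellum. It was the nearest gene to 1 and 1 of the strongest summits in excitatory and to 14 and 17 in inhibitory libraries (count model, adjusted p = 4.59e-04). Over all deposited peaks these numbers were 8 and 6 against 14 and 18. Rbms3, an RNA-binding protein gene, had 11 and 9 against 29 and 29 summits, and Dpp6, an auxiliary subunit of A-type potassium channels, 20 and 20 against 44 and 45. Arhgap15, a Rac GTPase-activating protein gene, went the other way with 20 and 20 against 7 and 3, and these 3 genes had an adjusted p of 0.0466 each. Leaving out 1 library reduced the count model to 0 or 1 calls.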

How the data were processed

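CUT&RUN libraries were made with the CUTANA kit and the NEBNext Ultra II kit from sorted nuclei, per the labels' protocols. Tools in the submitters' processing notes are MACS2 2.2.5, Bowtie2 2.3.5, SAMtools 1.12, Picard 2.25.0, Trim Galore 0.5.0 and cutadapt 1.18, with mm10 as the build; the sources used here give no settings or control. The authors deposited 1 narrow peak list per EGR1 library, with a fold enrichment (a ratio), a -log10 p-value and -log10 q-value and a summit offset for each peak. From the values, the deposited EGR1 lists reach a p of 0.00481 to 0.00491. Replicates 1 and 2 of the labels have peak names numbered 3 and 4, and the labels were followed. The lists hold no read counts, so the depth is unknown and peak numbers move with depth as well as with binding.

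Genes were the 21631 protein-coding RefSeq genes of GRCm38.p6, the assembly behind mm10. That gene table gives no strand, so coverage used the body with 5 kb on both sides, or 2 kb around both ends. Starts came from the RefSeq promoter table, which lacks chromosome 18 and some genes. A gene was tested with at least 1 covered base in 2 libraries, by limma 3.58.1 (R 4.3.3; lmFit and trended eBayes) and Benjamini-Hochberg adjustment over all genes tested, two-sided. Differences are excitatory minus inhibitory percentage points after quantile normalisation, and levels are not normalised. Summits went to the nearest gene within 100 kb. Any overlap of 1 base or more counted as a peak in a region or window. Both models were tested on simulated data.

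Named genes were, per test and direction, the 10 with the largest difference among those past the threshold without overlap (or 5 by p where fewer than 5 passed), up to 3 members per list, and the EGR, NAB and transmitter genes. The text names some of them, and other list members were named after their values were seen. Members, lists and rules were chosen with earlier results of these data known. Alternatives covered scaling, peak strength, filters, distances, pseudocounts, the replicate block and each library left out. 1 gene of the lists is counted in them but is not reported here.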

Additional observations from a re-analysis of the deposited data

How the results depend on the processing

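The number of genes called over gene bodies, 432 as reported, became 3027 without quantile normalisation, 142 with peaks of a -log10 q of at least 5 and 152 with all genes tested. It was 0 without any 1 of the 4 libraries. At gene ends the count of 0 became 53 with all genes tested. For summits per gene, 1613 as reported, it ranged from 2513 to 3617 without 1 library, and was 4 by the count model, which was added after seeing the data. Deviations of same-numbered libraries correlated at -0.03 over bodies, -0.02 at ends and 0.00 for summits. Such correlations over genes cannot show whether same-numbered libraries shared animals or a preparation, and the labels do not say. With the replicate block the counts were 269 over bodies, 0 at ends and 1451 for summits.

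With peaks of a -log10 q of at least 5, the excitatory minus inhibitory differences became 25046 peaks (40041 as reported), 17.3 Mb covered (23.4), -28.0 bp in median width (60.5), -0.569 in median fold (0.0419), -25.7 points in the share of summits within 2 kb of a gene end (-8.36), -4.31 points inside gene bodies (-3.86), 7.49 points over 50 kb from a gene (4.05) and 14679 bp in median distance to a gene end (6810). With an equal number of strongest peaks they were 8.61 Mb covered, 194 bp in width, 1.06 in fold, -3.60 points within 2 kb, 2.78 points over 50 kb and 2674 bp in distance. That number, 49899, is the whole inhibitory 1 list, while the excitatory lists lose their weaker peaks. The cut alone moves the excitatory median widths from 450 and 436 to 605 and 600 bp. This setting therefore cannot compare covered length, width or fold between the types. Excitatory-only, inhibitory-only and shared regions numbered 16252, 398 and 9110 at the q threshold, and 12053 and 6434 for the first 2 with equal peak numbers. With 50% of a region required, shared regions fell to 15075. Ranks in shared regions kept within 1.5 times of the reported shares under each alternative run. Slc17a7 turned to -1.69 points at the q threshold. The causes were not tested. Depth, which the lists do not hold, limits every comparison of peak numbers.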

Other observations

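The strongest peaks of all were the same in the 4 EGR1 libraries and carried peaks of other antibodies. A region of 428 bp at chr16:11143910-11144337 in Zc3h7a had folds of 29.2, 30.02, 29.7 and 29.8 and a peak in 11 of the 16 histone libraries, including all 4 of H3K27me3. A region in Lars2 at chr9:123461789-123462223 had folds of 26.5, 27.5, 26.7 and 25.8 and a peak in 13 histone libraries, again with all 4 of H3K27me3. Another region, 282022 bp from Pex2, had folds of 22.0, 22.3, 20.5 and 23.8 and a peak in 12. By contrast the region over the start of Wdr59 (folds of 17.3, 17.2, 18.6 and 16.1) had a peak in 10 histone libraries but in 0 of the H3K27me3 libraries. Whether such regions reflect EGR1 was not tested.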
